A study of Mus musculus with 8 samples.

Results

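The 10 CC chemokine genes Ccl2, Ccl3, Ccl4, Ccl5, Ccl7, Ccl17, Ccl20, Ccl22, Ccl24 and Ccl27a were examined in mouse whole skin, as 10 of the 36333 genes in the deposited count table. The members are a fixed list of gene symbols, and the list uses no measured value. It was chosen with earlier results of these data known. All 10 symbols were found in the table, and 8 had enough reads to be tested between the groups, while Ccl3 and Ccl4 were too low. Skin came from male C57BL/6J mice, for which the labels give 8 weeks, the age that the methods give for the start of tamoxifen. Control mice carried both floxed Nampt alleles (Nampt flox/flox), and Nampt-cKO mice carried the same floxed alleles together with KRT5-CreERT2 and had received tamoxifen at 100 μg/g daily for 5 days. The labels list tamoxifen for the Nampt-cKO mice alone, and the tamoxifen section of the methods names only them. The study's timeline caption covers tamoxifen in both groups, and its UVB experiment gave it to both. Cre was driven by the Krt5 promoter, so the deletion was aimed at basal keratinocytes, and dermal and immune cells of the same tissue were not targeted. Each group had 4 poly-A selected libraries, which the study's methods place at Day 19.

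CC chemokines are small secreted proteins that bind G protein-coupled receptors on leukocytes and guide where those cells go. In skin, keratinocytes make CCL27, which recruits T cells through CCR10, and CCL20, which recruits cells that carry CCR6. CCL17 and CCL22 are made by dendritic and Langerhans cells and act on CCR4, CCL2 and CCL7 draw monocytes through CCR2, CCL3 and CCL5 bind CCR1 and, with CCL4, attract monocytes and T cells, and CCL24 acts on CCR3, the main chemokine receptor of eosinophils.

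The starts of Ccl20 and Ccl27a are shown because these 2 genes had the highest and the lowest log2 fold change among the members tested, one in each direction. RefSeq promoter windows of GRCm38.p6 (250 bases before to 50 after a transcript start) were found for 5 of the 10 members, Ccl3, Ccl17, Ccl20, Ccl22 and Ccl27a, with 7 windows in all. The windows for Ccl20 at chr1:83116516-83116815 on the plus strand and for the most downstream of the 3 Ccl27a starts at chr4:41770163-41770462 on the minus strand read as follows, 5′ to 3′, with motif matches in capitals.
Ccl20: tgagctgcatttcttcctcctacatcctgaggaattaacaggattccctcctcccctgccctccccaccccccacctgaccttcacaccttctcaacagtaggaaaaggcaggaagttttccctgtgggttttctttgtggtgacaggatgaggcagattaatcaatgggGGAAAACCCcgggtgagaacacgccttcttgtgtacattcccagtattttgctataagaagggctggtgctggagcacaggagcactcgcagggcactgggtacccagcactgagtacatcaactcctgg
Ccl27a: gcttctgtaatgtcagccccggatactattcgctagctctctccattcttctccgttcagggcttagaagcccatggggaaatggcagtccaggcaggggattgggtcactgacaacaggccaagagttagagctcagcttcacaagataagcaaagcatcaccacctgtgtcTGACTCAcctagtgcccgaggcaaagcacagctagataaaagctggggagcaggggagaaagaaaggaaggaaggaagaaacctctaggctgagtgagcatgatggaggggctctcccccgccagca

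Both strands of every window were searched for 3 motifs, GGNNTTTCC (NF-κB type), TGANTCA (AP-1 type) and TTCNNNNGAA (STAT6 type). The Ccl20 window held 1 NF-κB type match, which starts at −80 relative to the transcript start, and 5.82% of all 32851 windows held this motif. The Ccl27a window held 1 AP-1 type match at −77, a motif found in 7.81% of all windows. The Ccl17 window held 1 STAT6 type match at −154, which 6.95% of all windows shared. The other 2 Ccl27a windows and those of Ccl3 and Ccl22 held none of the 3 motifs, and none of the 7 held matches to 2 motifs. These matches describe the letters only.

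Libraries held 39390895 to 53762935 exon reads. Reads in introns made up 10.8% to 11.8% of gene reads in control libraries and 12.7% to 16.5% in Nampt-cKO libraries. Nampt itself was at 77.7, 72.8, 71.0 and 60.3 CPM (counts scaled to library size) in control replicates 1 to 4 and at 32.3, 37.4, 76.0 and 49.6 CPM in those labelled Nampt-cKO replicates 1 to 4, so the third of these went against its label for the deleted gene. Its log2 fold change was −0.53 (SE 0.24, adjusted p = 0.0974, quasi-likelihood test of edgeR, adjusted by Benjamini-Hochberg). Without that library it was −0.83 (adjusted p = 0.00284, edgeR). Whole skin also holds dermal and immune cells that were not targeted, and their part in these Nampt values was not tested. Krt5, the keratin of basal keratinocytes, was at 7550 ± 380 and 8547 ± 1294 CPM (SD over n = 4 libraries a group). Libraries of a group were not repeats of 1 library, since they differed by more than the counting noise of read pairs, with a chi-square per gene of 9.44 to 33.1 between controls and of 47.5 to 155 between Nampt-cKO libraries. The labels number them without stating whether they are separate mice, and the spread behind each p-value is that of these libraries. In whole skin, fewer cells of a type and less RNA per cell cannot be told apart.

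Among the 8 members tested, 1 was higher in Nampt-cKO skin (Ccl20), 2 were lower (Ccl24 and Ccl27a) and 5 did not pass the test (edgeR, adjusted p under 0.05). Over all 17286 genes tested, 45.7% passed, 23.8% higher and 22.0% lower. The same shares are the background for the counts of every other gene list and marker list below. The median log2 fold change of the 8 members was 0.17, beside −0.01 over all genes tested. The 4 values of each group did not overlap for 2 members, Ccl24 and Ccl27a, both lower in Nampt-cKO skin, and for 45.3% of all genes tested (23.0% higher and 22.4% lower).

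**Figure D1:**
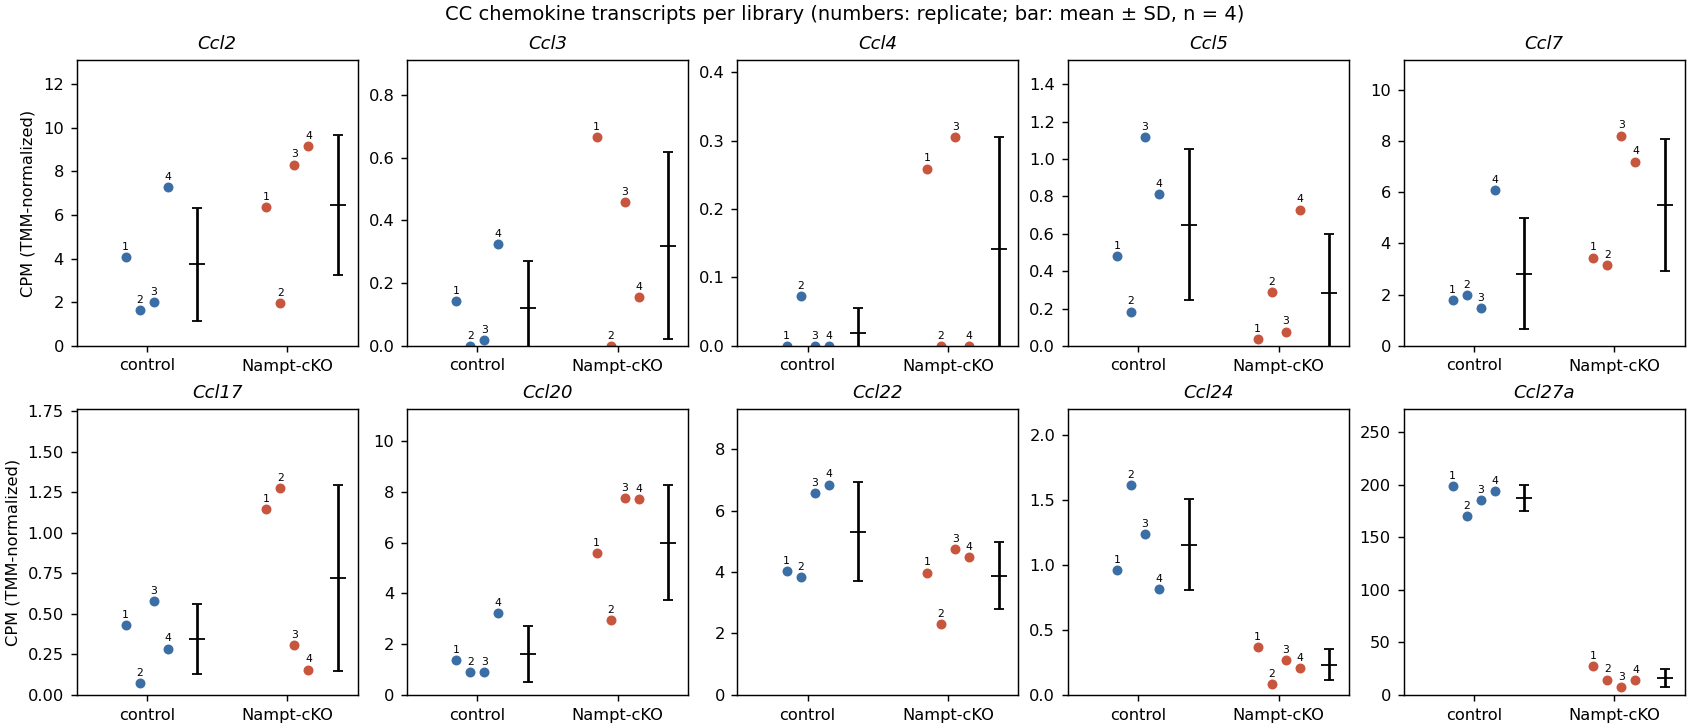
CPM (TMM-normalized, linear axes that start at 0 and differ between panels) of the 10 CC chemokines in the 4 control and 4 Nampt-cKO libraries. Points are libraries with their replicate number, and the bar at the right of each group is the mean ± SD. Ccl27a and Ccl24 are lower in every Nampt-cKO library, and control replicate 4 lies among the Nampt-cKO values for Ccl2, Ccl7 and Ccl20.

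Ccl27a, which encodes the keratinocyte chemokine CCL27 (also called CTACK), was the most abundant member in control skin and the one that fell furthest. It was at 199, 171, 186 and 194 CPM in control replicates 1 to 4 and at 27.7, 14.6, 7.69 and 14.3 CPM in Nampt-cKO replicates 1 to 4. The controls lay close together, and the highest Nampt-cKO library was far below the lowest control. The mean fell from 187 ± 12.4 to 16.1 ± 8.39 CPM (SD over n = 4 libraries a group), 11.7-fold lower (log2 fold change −3.54, SE 0.33, adjusted p = 5.7e-05, edgeR). Without Nampt-cKO replicate 3, the lowest library for this gene and the one that went against its Nampt label, the log2 fold change was −3.31 (adjusted p = 4.3e-05). Ccl27a lies on chromosome 4 from 41769467 to 41774200 on the minus strand of GRCm38, where the table merges its transcripts into 19 exons, and its 3′ end touches that of Il11ra1 on the opposite strand.

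Markers of keratinocytes, which make CCL27, moved in both directions. Of 10 markers, 2 were higher, 3 were lower and 5 were not past the test. Their summed level was 27982 to 30478 CPM in control and 21021 to 34058 CPM in Nampt-cKO libraries. These sums mix markers that moved apart. The 3 lower ones were Krt10 (log2 fold change −2.26), Lor (−2.83) and Ivl (−1.56), which encode proteins of differentiated layers. Flg (1.19) and Krt1 (−0.24), also markers of differentiated layers, did not pass the test, so markers of these layers did not move together. The 2 higher ones were Krt14 (1.86, adjusted p = 0.000308, edgeR), a basal keratin, and Itga6 (0.60). Krt5, Trp63 and Col17a1 did not pass the test. These markers were named after their values were seen. The part of these markers in the Ccl27a values was not tested.

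Ccl27a has a related copy, Ccl27b, and any reads that match both cannot be assigned. In Ccl27a, 93.6% of exon reads were unique, and with unique reads alone its log2 fold change was −3.57. Ccl27b had no unique read, so its level is uncertain. Which other genes its reads match, and how many match Ccl27a, is not given in the sources used here. Its values are therefore no separate support for the fall of Ccl27a. As tabulated, it was at 70.1 ± 5.72 CPM in controls and 11.0 ± 5.65 CPM in Nampt-cKO mice (SD over n = 4 libraries a group, log2 fold change −2.67, adjusted p = 0.00025, edgeR).

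Intron reads of Ccl27a, a readout that the test on exon reads did not use, fell by less than its exon reads. Scaled like CPM to the exon reads of the library, its intron reads were 15.5 ± 2.63 in control and 4.97 ± 2.80 in Nampt-cKO skin (SD over n = 4 libraries a group), a ratio of 3.11 between the means beside 11.7 for exon reads. The intron share of its gene reads was 7.71%, 9.23%, 7.77% and 5.67% in control replicates 1 to 4 and 24.4%, 19.5%, 32.6% and 20.7% in Nampt-cKO replicates 1 to 4. All 4 Nampt-cKO libraries were above all controls, also when the 95% Wilson intervals are compared, whose highest bound in controls was 9.80% and whose lowest in Nampt-cKO libraries was 17.0%. Such intervals cover counting error only. Among 16315 tested genes with reads in every library and an intron read in any, 5.38% had an intron share that was higher in every Nampt-cKO library. The share over all genes also rose, from 10.8% to 11.8% in controls to 12.7% to 16.5%, and its part in the Ccl27a values was not tested.

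**Figure D2:**
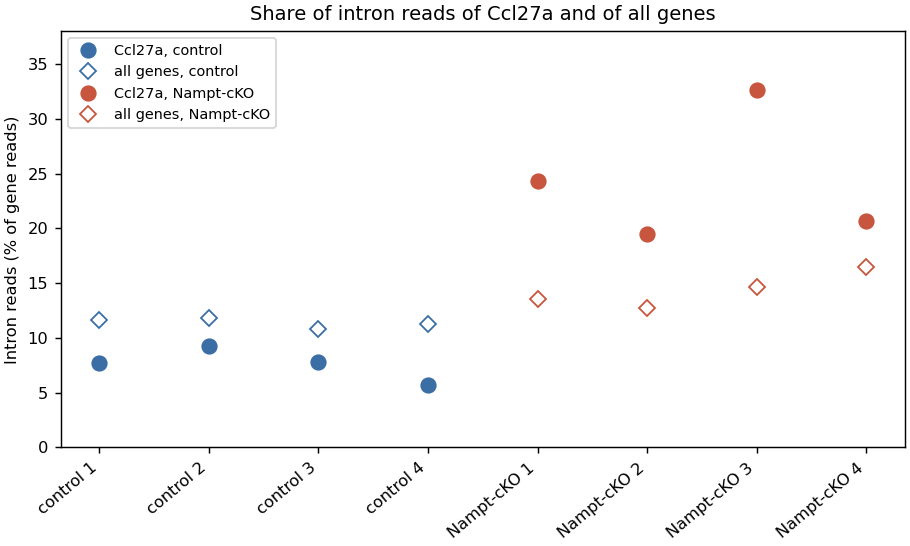
Intron reads as a percent of gene reads (exon and intron) for Ccl27a (filled circles) and for all genes together (open diamonds) in each library. Ccl27a lies below the share of all genes in the 4 control libraries (5.67% to 9.23%) and above it in the 4 Nampt-cKO libraries (19.5% to 32.6%).

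Ccl20 was the member that rose. It encodes a ligand of CCR6 that epithelial cells make in inflammation. It was at 1.37, 0.898, 0.907 and 3.22 CPM in control replicates 1 to 4 and at 5.59, 2.95, 7.74 and 7.71 CPM in Nampt-cKO replicates 1 to 4. The groups overlapped, since control replicate 4 was above Nampt-cKO replicate 2, while the other 3 Nampt-cKO libraries were above every control. The mean rose from 1.60 ± 1.10 to 6.00 ± 2.27 CPM (SD over n = 4 libraries a group), 3.75-fold (log2 fold change 1.91, SE 0.48, adjusted p = 0.00991, edgeR). Exact permutation of the 8 CPM values (two-sided) gave p = 0.0571, where the smallest possible is 0.0286. Without control replicate 4 the log2 fold change was 2.50 (adjusted p = 0.00202), and without Nampt-cKO replicate 3 it was 1.76 (adjusted p = 0.0242). Ccl20 lies on chromosome 1 from 83116766 to 83119167 on the plus strand, and 100% of its exon reads were unique.

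Its receptor Ccr6 was near the limit of these libraries. It was at 0.144, 0.147, 0.309 and 0.774 CPM in control replicates 1 to 4 and at 0, 0.185, 0.343 and 0.208 CPM in Nampt-cKO replicates 1 to 4. The groups overlapped and the difference did not pass the test (log2 fold change −0.90, 95% interval −3.00 to 1.20, adjusted p = 0.466, edgeR).

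Ccl2 and Ccl7 encode the monocyte chemoattractants MCP-1 and MCP-3 and lie next to each other on chromosome 11, from 82035577 to 82037452 and from 82045712 to 82047525, both on the plus strand. Ccl2 was at 4.08, 1.63, 2.01 and 7.27 CPM in control replicates 1 to 4 and at 6.35, 1.98, 8.31 and 9.17 CPM in Nampt-cKO replicates 1 to 4. The highest control exceeded 2 of the Nampt-cKO libraries. Its log2 fold change of 0.78 (SE 0.56, 95% interval −0.47 to 2.04, adjusted p = 0.280, edgeR) did not pass the test.

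Ccl7 was at 1.77, 1.98, 1.47 and 6.07 CPM in control replicates 1 to 4 and at 3.44, 3.15, 8.20 and 7.19 CPM in Nampt-cKO replicates 1 to 4. Every Nampt-cKO library was above control replicates 1 to 3, and control replicate 4 was above 2 of them. With all libraries the log2 fold change was 0.96 (SE 0.51, 95% interval −0.19 to 2.11, adjusted p = 0.156, edgeR). The call depended on that one control. Without control replicate 4, Ccl7 was higher in Nampt-cKO skin, with a log2 fold change of 1.65 (adjusted p = 0.0129). The library was also the highest control for Ccl3, Ccl20 and Ccl22, 5 of the 10 members in all with Ccl2 and Ccl7. Nampt-cKO replicate 2 was the lowest Nampt-cKO library, or tied for it, for 7 of the 10 members, and control replicate 2 was the lowest control for 7 of 10.

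The per-length ratio of Ccl2 to Ccl7 (RPKM) was 2.28, 0.819, 1.36 and 1.19 in control replicates 1 to 4 and 1.83, 0.624, 1.01 and 1.27 in Nampt-cKO replicates 1 to 4. Both genes were thus at similar levels per length, and the ratios of the groups overlapped. Their receptor Ccr2 fell. It was at 3.50, 5.92, 7.99 and 7.31 CPM in control replicates 1 to 4 and at 3.52, 0.824, 1.98 and 0.937 CPM in Nampt-cKO replicates 1 to 4, with Nampt-cKO replicate 1 level with the lowest control. Its log2 fold change was −1.76 (SE 0.48, adjusted p = 0.0140, edgeR).

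Of 10 monocyte and macrophage markers, 5 were higher and 1 lower, and 4 were not past the test. The 5 higher ones, named here after their values were seen, were C1qa, Cd14, Cd163, Ly6c2 and Mrc1, and the lower one was Csf1r. The summed level of the 10 markers was 232 to 457 CPM in control and 313 to 832 CPM in Nampt-cKO libraries. Adgre1, which encodes the macrophage antigen F4/80, was at 17.9 ± 5.31 CPM in controls and 9.42 ± 4.14 CPM in Nampt-cKO mice (SD over n = 4 libraries a group, log2 fold change −0.92, adjusted p = 0.0514, edgeR). The part of these cells in the values of Ccl2 and Ccl7 was not tested.

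Ccl17 (TARC) and Ccl22 (MDC), the ligands of CCR4, lie near each other on chromosome 8, from 94805250 to 94812038 and from 94745684 to 94751388. Ccl22 was at 4.03, 3.83, 6.56 and 6.84 CPM in control replicates 1 to 4 and at 3.98, 2.31, 4.75 and 4.48 CPM in Nampt-cKO replicates 1 to 4. The groups overlapped, with control replicates 3 and 4 above every Nampt-cKO library (log2 fold change −0.45, SE 0.30, 95% interval −1.12 to 0.21, adjusted p = 0.242, edgeR).

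Ccl17 was lower in level, with 66 exon reads in the 4 controls and 146 in the 4 Nampt-cKO libraries. It was at 0.432, 0.0733, 0.579 and 0.285 CPM in control replicates 1 to 4 and at 1.15, 1.28, 0.305 and 0.156 CPM in Nampt-cKO replicates 1 to 4. Nampt-cKO replicates 1 and 2 were above every control and replicates 3 and 4 within the range of the controls (log2 fold change 1.08, SE 0.79, 95% interval −0.68 to 2.85, adjusted p = 0.291, edgeR). The ratio of Ccl22 to Ccl17 per length was 13.3 to 74.5 in control libraries. In Nampt-cKO libraries it was 4.94 and 2.58 in replicates 1 and 2, below every control, and 22.2 and 40.9 in replicates 3 and 4, within their range. The size of this ratio is uncertain. The exon length used for Ccl17 (2582 bases in 8 exons) counts from 94805250, whereas the GENCODE annotation starts the gene at 94810453. A length that is too long would make Ccl17 look too low per length. Comparisons between libraries do not depend on it.

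Ccr4, the receptor for both ligands, fell further than any other CC chemokine receptor tested. It was at 17.1, 18.4, 13.7 and 16.9 CPM in control replicates 1 to 4 and at 1.07, 0.350, 0.782 and 0.391 CPM in Nampt-cKO replicates 1 to 4. No Nampt-cKO library came near the controls (25.0-fold lower, log2 fold change −4.65, SE 0.36, adjusted p = 2.1e-05, edgeR).

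Markers of the cells that make or answer these ligands also differed. Of 9 Langerhans and dendritic cell markers, none was higher and 8 were lower, and their summed level was 893 to 1452 CPM in control and 58.1 to 172 CPM in Nampt-cKO libraries. Most of these sums came from the MHC class II presentation genes Cd74 and H2-Aa (means of 748 and 235 CPM in controls). The marker that did not pass the test was Zbtb46 (log2 fold change −0.49, adjusted p = 0.254, edgeR). These were named after their values were seen. Cd207, which encodes langerin of Langerhans cells, fell from 31.7 ± 5.01 to 2.36 ± 1.97 CPM (SD over n = 4 libraries a group, adjusted p = 0.00049, edgeR). Of 6 T cell markers tested, 4 were lower, with a summed level of 31.6 to 41.7 CPM in control and 4.55 to 9.33 CPM in Nampt-cKO libraries, and Trdc was listed at 0 in every library. Cd3e, a subunit of the T cell receptor complex, fell from 10.9 ± 1.20 to 0.878 ± 1.05 CPM (SD over n = 4 libraries a group, adjusted p = 0.00384, edgeR). The part of these cells in the chemokine and receptor values was not tested.

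**Figure D3:**
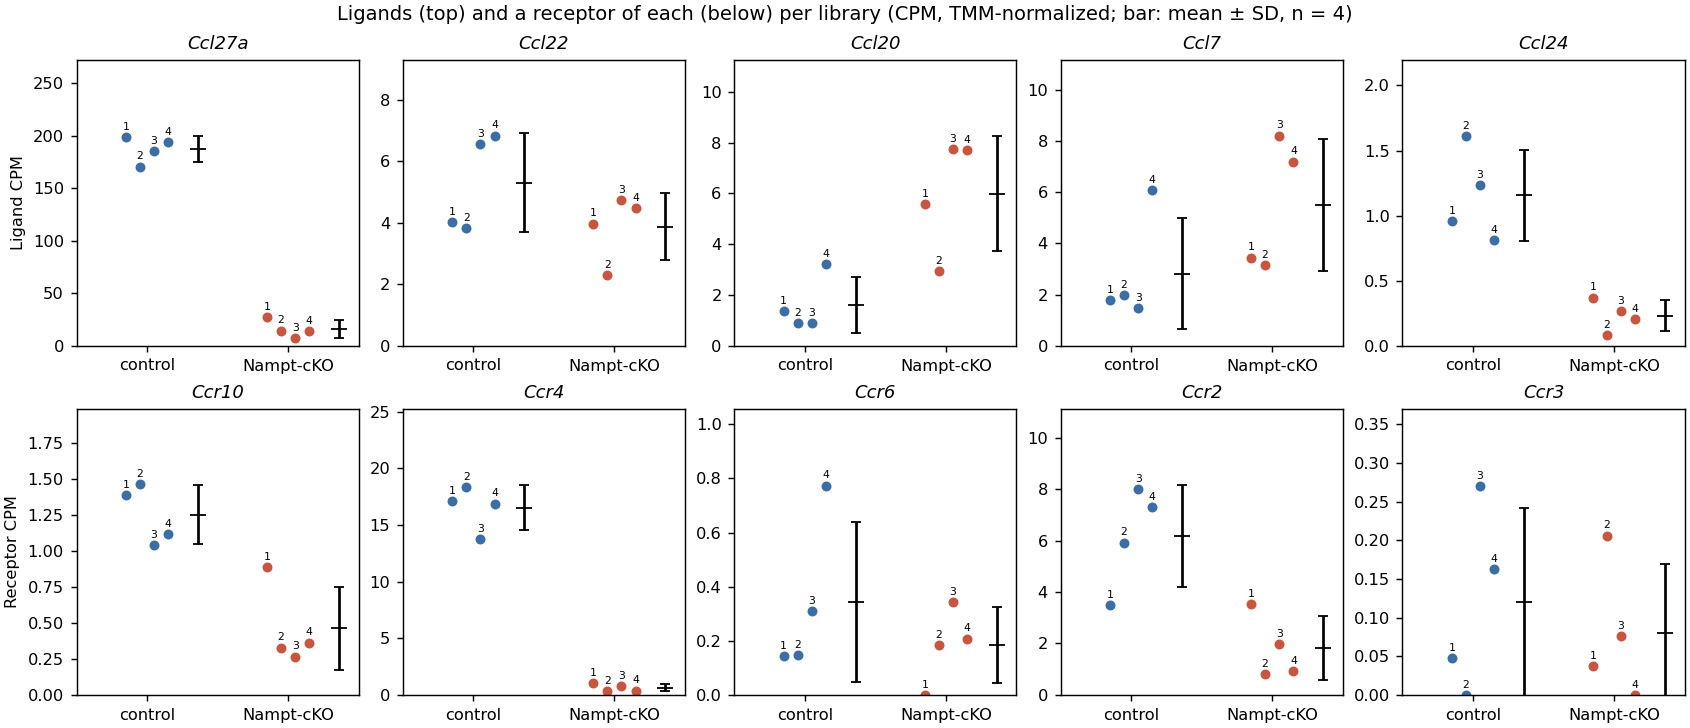
CPM (TMM-normalized, linear axes that start at 0 and differ between panels) per library of 5 ligands in the upper row and, below each, a receptor that binds it. Points are libraries with their replicate number and bars are the mean ± SD. Ccr4 is at 13.7 to 18.4 CPM in controls and 0.350 to 1.07 CPM in Nampt-cKO libraries, while its ligand Ccl22 overlaps between the groups, and both Ccl27a and its receptor Ccr10 are lower in every Nampt-cKO library.

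Ccl24 encodes eotaxin-2, a ligand of CCR3. It was at 0.959, 1.61, 1.24 and 0.814 CPM in control replicates 1 to 4 and at 0.370, 0.0824, 0.267 and 0.208 CPM in Nampt-cKO replicates 1 to 4. All Nampt-cKO libraries were below all controls, on 232 exon reads in the 4 controls and 46 in the 4 Nampt-cKO libraries. The mean fell from 1.16 ± 0.351 to 0.232 ± 0.120 CPM (SD over n = 4 libraries a group), 4.91-fold lower (log2 fold change −2.30, SE 0.51, adjusted p = 0.00519, edgeR), and without Nampt-cKO replicate 3 the log2 fold change was −2.37 (adjusted p = 0.0120). Ccl24 lies on chromosome 5 from 135569937 to 135573123 on the minus strand.

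The related eotaxin Ccl11, made by dermal fibroblasts among other cells, was lower, from 12.4 ± 5.04 to 5.98 ± 1.99 CPM (SD over n = 4 libraries a group, log2 fold change −1.05, SE 0.32, adjusted p = 0.0226, edgeR). Its groups overlapped, and the call was lost without control replicate 3 (log2 fold change −0.74, adjusted p = 0.0662) or Nampt-cKO replicate 2 (−0.92, adjusted p = 0.0600), and with limma-voom (−0.85, adjusted p = 0.103). Ccr3 was too low to test, with 24 exon reads in controls and 16 in Nampt-cKO libraries. Of 4 eosinophil markers, 1 was tested and was lower. All were near 0 in both groups, at a summed level of 0.769 to 1.12 CPM in control and 0 to 0.333 CPM in Nampt-cKO libraries, with the granule gene Epx listed at 0 throughout. Siglecf, an eosinophil surface lectin, fell from 0.854 ± 0.195 to 0.108 ± 0.124 CPM (SD over n = 4 libraries a group, adjusted p = 0.0314, edgeR), and its part in the Ccl24 values was not tested.

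Ccl5 (RANTES), a product of activated T and NK cells among others, was at 0.480, 0.183, 1.12 and 0.814 CPM in control replicates 1 to 4 and at 0.0370, 0.288, 0.0763 and 0.729 CPM in Nampt-cKO replicates 1 to 4. The groups overlapped and both spread widely. Its log2 fold change of −1.23 (SE 0.88, 95% interval −3.21 to 0.76, adjusted p = 0.287, edgeR) did not pass the test, and leaving out Nampt-cKO replicate 4 brought it to −2.27 (adjusted p = 0.0739). Of its exon reads, 83.0% were unique.

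Ccl3 and Ccl4 encode the macrophage inflammatory proteins MIP-1α and MIP-1β and have overlapping spans on opposite strands of chromosome 11 in the table, so reads of the shared stretch cannot be assigned without the counting setting for strand, which is not given in the sources used here. Ccl3 was at 0.144, 0, 0.0193 and 0.326 CPM in control replicates 1 to 4 and at 0.667, 0, 0.458 and 0.156 CPM in Nampt-cKO replicates 1 to 4. Ccl4 was at 0, 0.0733, 0 and 0 CPM in control replicates 1 to 4 and at 0.259, 0, 0.305 and 0 CPM in Nampt-cKO replicates 1 to 4. Where no read was found, a level of up to 0.112 to 0.152 CPM (3 read pairs, counted as 6 reads, depending on the library) remains possible. Exact permutation of the 8 CPM values (two-sided) gave p = 0.314 for Ccl3 and p = 0.429 for Ccl4. With no filter on low counts, edgeR gave log2 fold changes of 1.38 (adjusted p = 0.450) and 2.74 (adjusted p = 0.282), which did not pass the test.

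Level per length allows genes to be set side by side only as far as the exon lengths used are right. Those of Ccl4 and Ccl17 include stretches before the GENCODE start of the gene, so their levels may be too low. By this measure, Ccl27a made most of the summed level of the 10 members in control skin and less of it in Nampt-cKO skin. Its RPKM was 94.9 to 110.4 in control and 4.04 to 15.3 in Nampt-cKO libraries, which made 90.7%, 92.1%, 90.6% and 82.2% of the summed RPKM of the 10 members in control replicates 1 to 4 and 43.4%, 43.0%, 12.6% and 21.2% in Nampt-cKO replicates 1 to 4. The other 9 members together were at 11.4, 8.09, 10.8 and 23.2 RPKM in control replicates 1 to 4 and at 19.9, 10.1, 28.0 and 26.7 RPKM in Nampt-cKO replicates 1 to 4, and these sums overlapped between the groups. Ccl27a ranked highest in 6 of 8 libraries, and Ccl2 ranked highest in Nampt-cKO replicates 3 and 4. By mean RPKM the controls ran from Ccl27a (104) through Ccl2 (4.01 ± 2.74), Ccl7 (3.04 ± 2.32), Ccl22 (2.54 ± 0.769), Ccl20 (1.72 ± 1.17), Ccl5 (1.06 ± 0.666) and Ccl24 (0.731 ± 0.224) to Ccl3, Ccl17 and Ccl4 at 0.133 or less (SD over n = 4 libraries a group). Neighbours from Ccl2 to Ccl24 in that order differed by less than the larger of their SDs. In Nampt-cKO skin, Ccl27a (8.52 ± 4.77), Ccl2 (6.51 ± 3.15), Ccl20 (6.09 ± 2.23) and Ccl7 (5.56 ± 2.52) differed by less than the SD of Ccl27a, above Ccl22 (1.75 ± 0.489) and the rest at 0.422 or less (SD over n = 4 libraries a group).

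**Figure D4:**
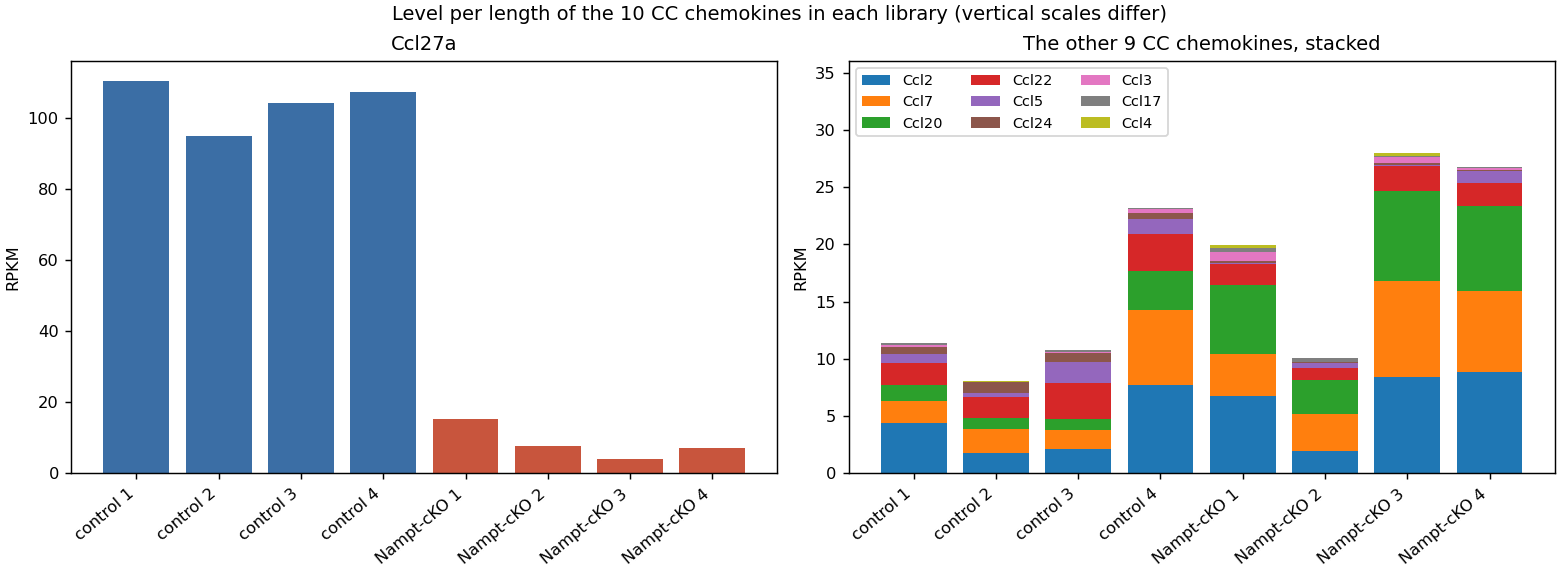
RPKM of Ccl27a (left) and stacked RPKM of the other 9 CC chemokines (right) in each library, on linear axes of different scale. Ccl27a falls from 94.9 to 110.4 RPKM in controls to 4.04 to 15.3 in Nampt-cKO libraries, and the stacked sums range from 8.09 to 23.2 in controls and from 10.1 to 28.0 in Nampt-cKO libraries.

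The rest of the family was described from a list of 14 genes, of which 13 were in the table and 11 were tested, with 4 higher, 2 lower and 5 not past the test. Over all genes tested, 23.8% were higher and 22.0% lower. Ccl6 rose from 16.1 ± 4.30 to 71.2 ± 40.2 CPM, Ccl9 from 14.6 ± 5.59 to 41.4 ± 17.8 CPM and Ccl12, a mouse ligand of CCR2, from 0.418 ± 0.0544 to 1.96 ± 0.554 CPM, with no overlap between groups (SD over n = 4 libraries a group, adjusted p = 0.00147, 0.00608 and 0.000632, edgeR). Only 43.1% of the exon reads of Ccl6 were unique. Ccl8, another monocyte attractant, was at 35.9 ± 12.8 and 63.3 ± 18.5 CPM (SD over n = 4 libraries a group, log2 fold change 0.82, adjusted p = 0.0389, edgeR), and its call was lost when any of control replicates 1 and 2 or Nampt-cKO replicates 3 and 4 was left out (log2 fold change 0.63 to 0.76, adjusted p = 0.0842 to 0.102) and in the 3 fits on log2 RPKM (adjusted p = 0.0531, 0.0570 and 0.0801, limma). The 2 lower genes were Ccl11 and Ccl27b. Ccl1, Ccl19, Ccl21a, Ccl25 and Ccl28 had log2 fold changes of −0.41 to 0.39 that did not pass the test, with adjusted p = 0.422 to 0.951 (edgeR). Ccl21b and Ccl26 were listed at 0 in every library, and Ccl21c was not analysed here. By mean RPKM in controls, Ccl8 (60.8), Ccl21a (58.4), Ccl27b (29.3), Ccl11, Ccl6 and Ccl9 lay between Ccl27a and Ccl2, in that order. Ccl9 was only just above Ccl2. The span used for Ccl27b also starts before its GENCODE gene, so its place is uncertain.

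**Figure D5:**
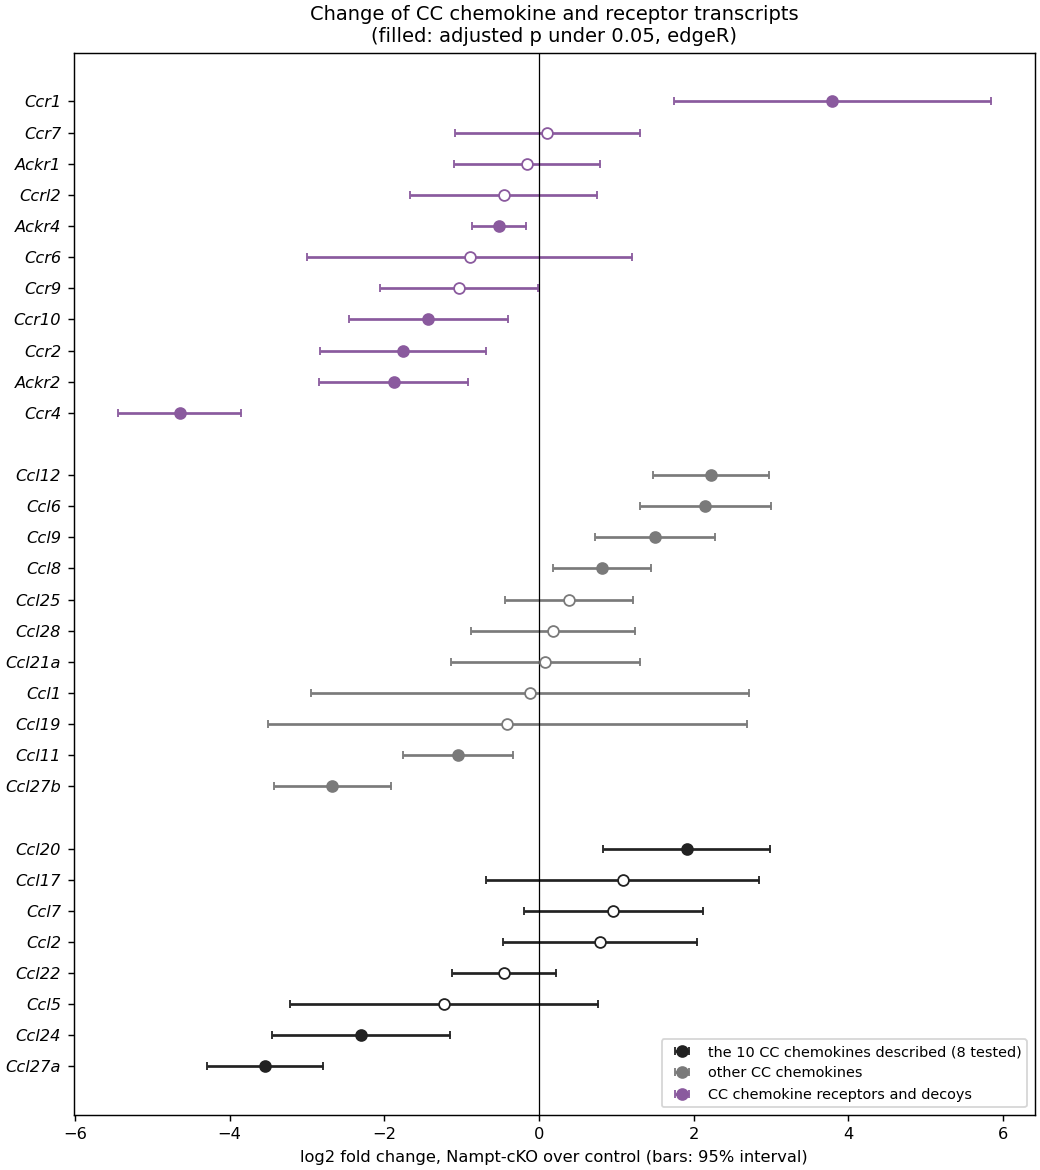
Log2 fold change of Nampt-cKO over control with its 95% interval (edgeR) for the 8 members tested (black), 11 other CC chemokines (grey) and 11 CC chemokine receptors (purple), ordered by size within each set. Filled points passed the test at an adjusted p under 0.05. The members run from Ccl27a at −3.54 to Ccl20 at 1.91, and the receptors from Ccr4 at −4.65 to Ccr1 at 3.79.

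Of 13 CC chemokine receptors and decoys, 11 were tested, with 1 higher, 5 lower and 5 not past the test, beside 45.7% of all genes tested that passed. Their median log2 fold change was −0.90. Ccr1, a receptor of neutrophils and monocytes in mice, was the one that rose. It was at 0, 0.220, 0.232 and 0.244 CPM in control replicates 1 to 4 and at 1.22, 0.536, 5.53 and 2.66 CPM in Nampt-cKO replicates 1 to 4. Every Nampt-cKO library was above every control, and replicate 3 was the highest (log2 fold change 3.79, SE 0.91, adjusted p = 0.00775, edgeR). Without replicate 3 the log2 fold change was 3.04 (adjusted p = 0.0225).

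Neutrophil markers were also higher in Nampt-cKO libraries, but not in the order of Ccr1, which was lowest among these in replicate 2 (0.536 CPM). All 7 markers tested were higher, with a summed level of 3.12 to 3.33 CPM in control and of 35.7, 518, 737 and 160 CPM in Nampt-cKO replicates 1 to 4, and the defining marker Ly6g was listed at 0 in controls and at up to 0.156 CPM in Nampt-cKO libraries. Most of these sums in Nampt-cKO skin came from S100a8 and S100a9, named here after their values were seen, which inflamed keratinocytes also make. Without them, the sum was 0.806 to 1.97 CPM in control and 11.9, 15.3, 26.1 and 19.2 CPM in Nampt-cKO replicates 1 to 4. Their part in the Ccr1 values was not tested.

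Ccr10, the receptor for CCL27, was at 1.39, 1.47, 1.04 and 1.12 CPM in control replicates 1 to 4 and at 0.889, 0.330, 0.267 and 0.365 CPM in Nampt-cKO replicates 1 to 4. The groups did not overlap (log2 fold change −1.43, SE 0.46, adjusted p = 0.0284, edgeR). The call was lost on leaving out control replicate 1, 2 or 4 or Nampt-cKO replicate 2, 3 or 4 (log2 fold change −1.48 to −1.24, adjusted p = 0.0515 to 0.0770). Ccr10 overlaps Cntnap1 on the opposite strand, and reads of the shared stretch cannot be assigned.

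Ackr2, a decoy receptor that removes inflammatory CC chemokines, fell from 16.5 ± 2.24 to 4.49 ± 3.02 CPM with no overlap (SD over n = 4 libraries a group, log2 fold change −1.88, SE 0.43, adjusted p = 0.00602, edgeR). Ackr4, the decoy receptor for CCL19, CCL21 and CCL25, was at 147 ± 9.90 and 103 ± 25.2 CPM (SD over n = 4 libraries a group, log2 fold change −0.52, adjusted p = 0.0219, edgeR). Only 5.15% of its exon reads were unique and it overlaps Acad11, and with unique reads its log2 fold change of −0.31 did not pass the test (adjusted p = 0.307). It was also lost on leaving out control replicate 1 or 2 or Nampt-cKO replicate 2 or 3 (log2 fold change −0.50 to −0.42, adjusted p = 0.0502 to 0.0576). Ccr6, Ccr7, Ccr9, Ccrl2 and Ackr1 did not pass the test, with log2 fold changes of −1.04 to 0.11 and adjusted p = 0.0904 to 0.890 (edgeR). Ccr8, a receptor of T cells among others, was too low to test, at 0.116 to 0.346 CPM in control and 0.0381 to 0.111 CPM in Nampt-cKO libraries, on 45 and 16 exon reads.

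Of 12 cytokines known to induce CC chemokines, 8 were tested, with 4 higher, 1 lower and 3 not past the test, beside 45.7% of all genes tested that passed. Il6 was at 0.148 ± 0.111 CPM in control and 8.97 ± 7.42 CPM in Nampt-cKO skin (log2 fold change 5.93, SE 0.75, adjusted p = 0.000255). Without Nampt-cKO replicate 3 its log2 fold change was 5.18 (adjusted p = 0.000263). Osm, which encodes oncostatin M, rose from 0.0621 ± 0.0533 to 1.94 ± 0.877 CPM (adjusted p = 0.000656). Tslp, the epithelial cytokine thymic stromal lymphopoietin, rose from 3.28 ± 0.488 to 8.12 ± 1.29 CPM (adjusted p = 0.000621). Il1b was at 1.48 ± 0.631 and 4.55 ± 3.57 CPM (log2 fold change 1.61, adjusted p = 0.0293), and without Nampt-cKO replicate 3 at a log2 fold change of 0.89 (adjusted p = 0.0836). Il13 was the one lower, on 57 exon reads in controls and 6 in Nampt-cKO libraries (adjusted p = 0.0325). All of these are means ± SD of n = 4 libraries with adjusted p from edgeR. The call of Il1b was lost on leaving out control replicate 1, 2 or 3 or Nampt-cKO replicate 3, with adjusted p of up to 0.0836, and with total gene reads (0.0557) and, in limma, on log2(RPKM + 1) (0.0789) and on log2(RPKM + 0.1) with no filter (0.0779). That of Il13 was lost with no filter (0.0817) and on leaving out any control or Nampt-cKO replicate 2, 3 or 4, at adjusted p of up to 0.0885.

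For the 5 members with a mean of at least 1 CPM over the 8 libraries, the genes with the most similar pattern were sought among 13630 genes by the root mean square (RMS) distance of log2 CPM, each centred on its own mean, over the 8 libraries. This distance is a description, and libraries of one group share their group's change. Skint2, a member of the epidermal Skint family, was closest to Ccl27a, at a distance of 0.10 beside a spread of 1.90 in Ccl27a itself. Skint2 was at a mean of 14.6 CPM in control and 1.36 CPM in Nampt-cKO skin. Ache (acetylcholinesterase, 0.19) and Serpinb7 (a clade B serpin, 0.24) came next.

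For Ccl20, with a spread of 1.19, the closest genes were Clec2f (0.37), Dusp6 (0.39), which encodes a phosphatase of ERK kinases, and Bcl2l15 (0.43). Ccl7, with a spread of 0.89, was closest to Thbs1 (thrombospondin-1, 0.31), Nfkbiz (which encodes IκBζ, 0.35) and Junb (an AP-1 subunit, 0.35). Junb was at a mean of 380 CPM in control and 778 CPM in Nampt-cKO skin. The nearest genes to Ccl2, Sprr4, Rgs2 and St8sia2, were at 0.50 to 0.52 beside a spread of 0.95, a poorer match than the others had. Ccl22, which varied least with a spread of 0.46, had Olfml2a, Kcnc4 and Apbb1ip at 0.18 to 0.20.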

How the data were processed

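The members and the gene lists were chosen with earlier results of these data known. Total RNA of whole skin was poly-A selected and sequenced on an Illumina NovaSeq instrument. The authors deposited one table of whole-number counts per gene and library (total exon, unique exon, junction, intron and gene reads) and RPKM values made from exon reads and exon length. Between 61.7% and 64.2% of the counts above 0 were even, so both mates of a read pair seem to count, and reads are not independent molecules. The submitters' processing notes name GRCm38 (mm10). For the aligner, counter and strand setting, nothing is given in the sources used here. The table's own p-values and fold changes were not used, nor were 115 other columns of per-sample values.

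Total exon reads were tested with edgeR 4.0.16 in R 4.3.3, with TMM factors (0.963 to 1.03), the default filterByExpr, condition alone in the quasi-likelihood model, and p-values adjusted by Benjamini-Hochberg over the 17286 genes tested at a threshold of 0.05. The biological coefficient of variation was 0.283. Standard errors were derived from the log2 fold change and the F statistic. CPM values include the TMM factors, with a prior count of 2 on the log2 scale. Single values were compared by exact two-sided permutation of 4 against 4 libraries. With a count of 0, 3 read pairs (6 reads) were taken as the level still possible.

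Genes were named by rule: all members, every tested gene of the other CC chemokines and of the receptors (1 receptor is not reported here), cytokines past the test, the defining markers Adgre1, Ly6g, Cd207, Cd3e, Cpa3, Siglecf, Krt5, Pecam1 and Acta1, and, for each member with a mean of at least 1 CPM, the 3 genes with the smallest distance (mean at least 1 CPM, predicted Gm and Rik genes left out). Other cell type markers are given by counts and sums, except those named after their values were seen. Mast cell markers had 1 of 5 tested higher, fibroblast markers 1 of 6 higher and 3 lower, endothelial markers 1 of 5 lower and skeletal muscle markers none of 4 past the test. Cpa3, Pecam1 and Acta1 did not pass it (adjusted p = 0.354 to 0.967, edgeR). Alternatives were DESeq2 1.42.0, RLE factors, limma-voom (limma 3.58.1) with quality weights per sample, no filter and a filter of 1 CPM in 4 libraries, unique exon reads, total gene reads, limma on log2(RPKM + 0.1) and log2(RPKM + 1), replicate number as a block, and leaving out every library once. The fit was tested on simulated counts. Tables and plots were made in Python 3.11.15 (pandas 2.3.3, NumPy 2.4.6, Matplotlib 3.10.9).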

Additional observations from a re-analysis of the deposited data

Results flagged for a closer look

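A library was set apart when its distance to the nearest library of its group, divided by the group's range, exceeded Dixon's 95% critical value for 4 samples. Chance sets apart about 1 in 20 groups, and 7 of the 66 groups tested (33 genes in 2 conditions) were set apart. Among the members, control replicate 4 stood above the other controls for Ccl7, at 6.07 CPM beside 1.47 to 1.98 CPM. Control replicate 2 was the only control with Ccl4 reads, at 0.0733 CPM on 4 exon reads, and with the other 3 at 0 any value sets it apart. In the rest of the family, Nampt-cKO replicate 3 was high for Ccl12, at 2.78 CPM beside 1.61 to 1.77 CPM, and control replicate 2 was high for Ccl28, at 2.18 CPM beside 0.734 to 0.814 CPM. Among the receptors, control replicate 1 had 0 CPM of Ccr1 beside 0.220 to 0.244 CPM, Nampt-cKO replicate 1 was high for Ccr10 at 0.889 CPM beside 0.267 to 0.365 CPM, and control replicate 3 was low for Ackr4 at 132 CPM beside 151 to 153 CPM. The cause of these differences was not tested.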

How the results depend on the processing

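Ccl20, Ccl24 and Ccl27a kept their direction and passed the test under every alternative in which they were tested, with adjusted p of up to 0.0329, 0.0227 and 0.000412 (Ccl24 was not tested under the stricter filter, and its log2 fold change was −0.60 on log2(RPKM + 1), where the pseudocount shrinks low genes). Ccl2, Ccl5, Ccl17 and Ccl22 passed under none. Ccl7 passed with limma-voom (log2 fold change 1.37, adjusted p = 0.0254) and, when each library was left out, ranged from 0.69 to 1.65, passing without control replicate 4. Nampt passed with limma-voom (−0.54), limma on log2(RPKM + 0.1) (−0.68) and on log2(RPKM + 1) (−0.62), and ranged from −0.83 to −0.38 with a library left out, passing without Nampt-cKO replicate 3. The cause of these changes was not tested. Between 2 and 4 members passed over all alternatives, 2 under the stricter filter, which tested 5. With the replicate number as a block, which the labels do not tie to a pairing, 7516 genes passed in place of 7905 and the same number of members, 3 (Ccl2 at adjusted p = 0.0918 and Ccl7 at 0.0636). Same-numbered libraries had correlations of −0.05 to 0.18 after removing group means, and others −0.23 to 0.14. Alternatives for single genes of the other lists and for the cytokine count were added after seeing the data. Over 560 such values for 30 genes, calls were lost in 36 (6 genes) and gained in 4 (2 genes), and no called gene turned direction. Of 5 cytokines, 3 passed under the stricter filter, and 3 to 5 with a library left out, 3 without control replicate 1, 2 or 3. RPKM-based fits moved the share of higher calls over all genes from 52.0% to between 42.3% and 42.7%. Low counts limit Ccl3, Ccl4, Ccl5 and Ccl17.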
